A study of Mus musculus with 8 samples.

Results

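The replication-dependent histone genes were taken as every gene of the deposited expression table whose name begins with Hist1h, Hist2h, Hist3h or Hist4h, which gave 68 of the 23420 named genes. Of these 68, 54 had at least 1 read and 14 were listed at 0. They comprised 6 genes for the linker histone H1 and 18 for H2A, 19 for H2B, 12 for H3 and 13 for H4. The table compared the limbal rim, the ring of tissue at the border of the cornea that holds the limbal epithelial stem cells, with the corneal button, the central cornea inside it. Both tissues came from wild type C57BL/6J mice aged 8 weeks. The rims and the buttons of 16 eyes were each pooled before RNA extraction, and the labels list 4 samples of each tissue. The table, however, holds 1 comparison of the pooled cornea with the pooled limbus and no value for a single sample, so each tissue is 1 library here and no difference below has a replicate check.

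Core histones H2A, H2B, H3 and H4 form the protein spool around which DNA is wrapped, and the linker histone H1 binds where the DNA enters and leaves the spool. The replication-dependent genes supply these proteins while DNA is copied, and their mRNAs usually end in a short stem-loop, bound by the stem-loop binding protein Slbp, in place of a poly(A) tail. Some members also give longer, polyadenylated mRNAs, which have been described in cells that no longer divide. In the corneal epithelium, dividing cells lie in the basal layer, and the stem cells of the limbus divide slowly.

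The stem-loop is the sequence that sets these mRNAs apart, so it is shown first for a linker histone, each core histone and the other forms of the stem or loop. A match to the histone stem-loop was found within 150 bases after the stop codon in 43 of the 68 members (GRCm38, GENCODE M21 transcripts). Several of the others, Hist1h1b, Hist1h2ai and Hist1h3h among them, are annotated with 0 bases after the stop codon. A missing match there reflects where the annotation stops and does not show that the gene lacks a stem-loop. Over all genes, looking in the last 300 bases of the transcript only, a match was found in 26 members and in 9 of 55273 other genes, or 0.0163%. Capitals mark the stem and loop, and lower case the flanking bases, 5′ to 3′ on the mRNA strand.
Hist1h1c: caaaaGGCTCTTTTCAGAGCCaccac
Hist1h2ac: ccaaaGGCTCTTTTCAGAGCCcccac
Hist1h2bg: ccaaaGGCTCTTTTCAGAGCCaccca
Hist2h3c1: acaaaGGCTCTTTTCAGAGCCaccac
Hist4h4: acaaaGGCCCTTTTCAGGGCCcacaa
Hist1h4i: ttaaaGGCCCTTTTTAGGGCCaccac
Hist1h4b: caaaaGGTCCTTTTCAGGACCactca
Hist1h2bk: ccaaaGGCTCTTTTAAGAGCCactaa
Hist1h1c, Hist1h2ac, Hist1h2bg and Hist2h3c1 share 1 stem and loop, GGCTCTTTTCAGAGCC, which 25 of the 43 matched members carried. The most common stem and loop of the H4 genes was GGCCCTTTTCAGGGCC, in 7 members. Of the 5 members with the most reads, Hist1h1c, Hist3h2a and Hist1h4i had a match, and Hist1h2bc and Hist2h2be had none in this window.

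The read depth behind the table was 26104317 reads on named genes for the cornea and 21182025 for the limbus. The dissection showed in the tissue markers. Krt12, the keratin of the corneal epithelium, was lower in the limbus (log2 ratio of limbus over cornea -2.19), as were Kera (-2.99) and Aldh3a1 (-1.22). The limbal keratins Krt15, Krt14 and Krt19 were higher there, at log2 ratios of 3.32, 2.52 and 4.53. Markers of other cell types were also higher in the limbus for 7 of the 8 such genes with over 3 reads in each library, among them Acta1 of skeletal muscle (10 cornea reads and 1564 limbus reads), Pecam1 of vessels (6 and 831) and Csf1r of macrophages (74 and 465). Kit, listed as a mast cell marker, was on the other side (5165 and 2491 reads, -0.96), and 1 gene alone does not measure these cells. Hba-a1 of red cells was listed at 0. The part of this difference in cell makeup in the histone values was not tested. In bulk tissue, fewer cells of a type and less RNA per cell cannot be told apart.

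Replication-dependent histone reads were more often on the cornea side. Summed over all members there were 4012 cornea reads and 3038 limbus reads, 154 and 143 RPM (reads scaled to the total of the library), and after scaling by the size factors of the table the log2 ratio was -0.31 (95% interval -0.37 to -0.24, counting error only). The sum was therefore 1.24-fold higher in the cornea. Of the 54 detected members, 19 passed the minimum of more than 3 reads in each library, and 9 of these 19 (47.4%) were higher in the cornea beyond counting error, a share near the 40.6% of the 13862 named genes over the same minimum. None of the 19 was higher in the limbus, against 33.2% of all genes, and 10 had intervals that included equality. The median log2 ratio of the 19 was -0.85, beside -0.05 for all genes. A log2 ratio of -1 or below was found for 6 members (31.6%), against 8.99% of all genes, and 16 of 19 (84.2%) lay on the cornea side at all, against 53.4%. Because genes of few reads can pass this minimum only with reads in both tissues, these shares describe the members that passed and not all 68.

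The scale bears on these counts. The size factors of the table differ less between the tissues than the library totals do, and scaling to total reads moves every log2 ratio up by 0.21. On that scale the summed log2 ratio was -0.10 (-0.17 to -0.03), 7 of the 19 members were higher in the cornea (29.7% of all genes were) and 2, Hist3h2a and Hist2h2be, were higher in the limbus (45.1% of all genes). The median of the 19 was then -0.64. The H1 sum described below became -0.095 (-0.20 to 0.014), the H2B sum -0.071 (-0.18 to 0.036) and the H2A sum 0.058 (-0.15 to 0.26), so none of these 3 differed beyond counting error, while the H3 and H4 sums stayed lower in the limbus.

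**Figure D1:**
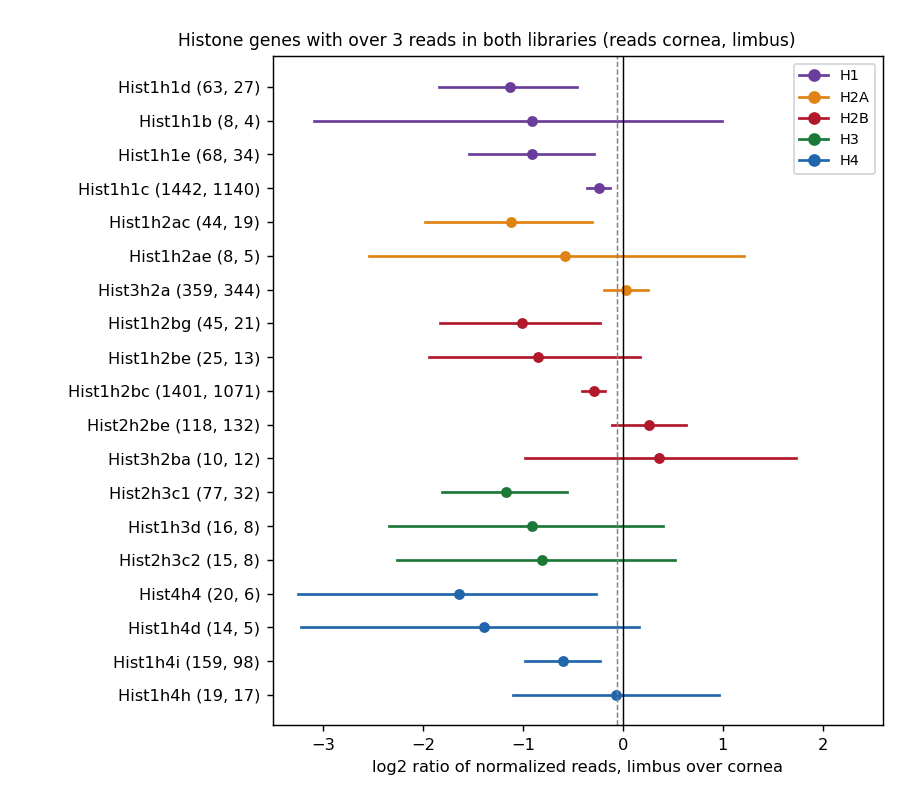
Log2 ratio of normalized reads, limbus over cornea (horizontal axis), for the 19 histone genes with over 3 reads in each library, grouped by histone colour, with the reads of the cornea and the limbus in brackets. Lines are exact 95% intervals for counting error and the dashed line is the median of all genes, -0.05; 16 of the 19 points lie to the left of 0, and the longest lines belong to members with few reads.

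Among the 6 H1 genes, whose proteins compact the chromatin fibre, all were detected and 4 had over 3 reads in each library. Hist1h1c (ENSMUSG00000036181.2, chr13:23738808-23740367, plus strand) had the most reads of any member, 1442 (cornea) and 1140 (limbus), a log2 ratio of -0.24 (-0.36 to -0.13). The 3 other H1 genes over the minimum had far fewer reads and lay further to the cornea side. Hist1h1d (chr13:23553262-23560686, plus strand) had 63 and 27 reads, a log2 ratio of -1.13 (-1.83 to -0.45). Hist1h1e (chr13:23620629-23622558, minus strand) had 68 and 34 reads, a log2 ratio of -0.90 (-1.54 to -0.29). It overlaps Hist1h2be on the same strand, so that reads in the shared stretch may have been counted to either. Hist1h1b had 8 and 4 reads, and its interval included equality. Hist1h1a had 8 and 1 reads, and Hist1h1t, the H1 of the testis, had 0 and 1. The sum over H1 was 1589 and 1207 reads, a log2 ratio of -0.30 (-0.41 to -0.19), and without Hist1h1c it was -1.04 (-1.48 to -0.61), a setting chosen after the values were seen.

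Reads of H2A, which pairs with H2B in the spool, came mostly from 1 gene. Hist3h2a (chr11:58954685-58956830, plus strand) had 359 cornea reads and 344 limbus reads, a log2 ratio of 0.03 (-0.18 to 0.25). The gene overlaps Trim17 on the same strand. Hist1h2ac (chr13:23681467-23683948, minus strand) was lower in the limbus, with 44 and 19 reads and a log2 ratio of -1.12 (-1.97 to -0.31). It overlaps Gm24991, annotated as a ribosomal RNA gene, on the same strand, and the ribosomal RNA precursor Rn45s, chosen after its values had been seen, was also lower in the limbus (-3.04). The part of this overlap in the value was not tested. Hist1h2ae had 8 and 5 reads and did not differ beyond counting error. Of the other 15 H2A genes, Hist1h2af had 10 cornea reads and 0 limbus reads, Hist1h2ad 5 and 1, and Hist2h2ac 4 and 1. Hist1h2ab had 3 and 0, Hist1h2ak 2 and 0, and Hist1h2ah, Hist1h2an and Hist2h2ab each had 1 and 0. Every H2A gene with a read other than Hist3h2a thus had more normalized reads in the cornea. The H2A sum was 438 and 370 reads, a log2 ratio of -0.15 (-0.35 to 0.06).

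Hist1h2bc led the H2B genes. It lies at chr13:23684199-23692908 on the plus strand and had 1401 cornea reads and 1071 limbus reads, a log2 ratio of -0.29 (-0.41 to -0.18). Hist2h2be (chr3:96221119-96223738, plus strand) lay on the limbus side, with 118 and 132 reads and a log2 ratio of 0.26 (-0.11 to 0.63), an interval that included equality. Hist1h2bg (chr13:23571396-23572013, plus strand) had 45 and 21 reads, a log2 ratio of -1.004 (-1.83 to -0.23). Smaller values were found for Hist1h2be (25 and 13 reads, -0.85) and Hist3h2ba (10 and 12 reads, 0.36), and neither differed beyond counting error. The remaining detected H2B genes had 6 reads or fewer in a library. More normalized reads in the cornea were found for Hist1h2bn (6 and 2), Hist1h2bh and Hist2h2bb (both 5 and 1), Hist1h2bk (4 and 0), Hist1h2bb (3 and 1), Hist1h2bm (3 and 0) and Hist1h2bl (2 and 0). The pseudogene Hist3h2bb-ps (0 and 1), Hist1h2bf (1 and 2) and Hist1h2bj (2 and 2) were on the limbus side. The H2B sum was 1630 and 1259 reads, a log2 ratio of -0.28 (-0.38 to -0.17).

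H3, whose tail carries many of the chromatin marks, had the lowest sum of the core histones and the largest difference of any class, with 118 cornea reads and 55 limbus reads (log2 ratio -1.01, -1.49 to -0.53). Hist2h3c1 (chr3:96246685-96248509, plus strand) made up most of it, with 77 and 32 reads and a log2 ratio of -1.17 (-1.81 to -0.56). Each of its 75-base stretches also occurs in another gene of the annotation and it overlaps Gm20634 on the same strand, so its own share of these reads is uncertain. Without the members overlapped by another gene the H3 sum was -0.74 (-1.54 to 0.03) and included equality. Its neighbour Hist2h3c2 had 15 and 8 reads and Hist1h3d had 16 and 8, at log2 ratios of -0.81 and -0.90, both within counting error. The other detected H3 genes, Hist1h3i (1 and 3), Hist1h3c (3 and 1), Hist1h3f (0 and 2), Hist1h3b and Hist1h3e (both 2 and 0), Hist1h3a (1 and 1) and Hist1h3g (1 and 0), had too few reads for a ratio.

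For H4, the partner of H3, the sum was 237 and 147 reads, a log2 ratio of -0.59 (-0.90 to -0.29). Hist1h4i (chr13:22040636-22041362, minus strand) gave most of these reads, 159 (cornea) and 98 (limbus), a log2 ratio of -0.60 (-0.98 to -0.23). Hist4h4 (chr6:136801553-136804415, minus strand), the only Hist4 gene, had the lowest ratio of the 19, with 20 and 6 reads and a log2 ratio of -1.64 (-3.25 to -0.27). Hist1h4d (chr13:23581598-23582735, plus strand) had 14 and 5 reads, a log2 ratio of -1.39 (-3.22 to 0.17), which counting error could still bring to equality. Hist1h4h was nearly level, at 19 and 17 reads and a log2 ratio of -0.06. The other H4 genes with reads were Hist1h4c (8 and 3), Hist1h4j (6 and 3), Hist1h4b (4 and 2), Hist1h4n (3 and 1), Hist1h4a (2 and 3), Hist1h4f (1 and 2), Hist2h4 (0 and 2) and Hist1h4k (1 and 5). Hist1h4k was the only member with more than 3 reads in the limbus and 3 or fewer in the cornea, while 11 members had the opposite. The same count was not made over all genes, so this split is not read as a trait of the members.

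The members of few reads were counted together. Of the 54 detected members 40 (74.1%) had more normalized reads in the cornea, against 47.3% of the 17442 detected genes. Among the 38 detected members with a mean under 10 reads it was 27 (71.1%), where 28.0% of the 3510 named genes in that range were. Summed, these 38 had 131 cornea reads and 56 limbus reads, a log2 ratio of -1.13 (-1.61 to -0.67), while the sum over all genes with a mean under 10 lay on the limbus side, at 1.07. The 12 members with more than 3 reads in 1 library only had 66 and 20 reads together, a log2 ratio of -1.63 (-2.43 to -0.89). Of these 12, 11 were included through their cornea reads. The choice of members thus pulls this ratio down by itself, and it is a description of the group only. The 23 with 3 or fewer in both had 35 and 22, a log2 ratio of -0.57 (-1.41 to 0.24) that included equality, with 13 of the 23 on the cornea side.

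The 14 members without a read were Hist1h2aa, Hist1h2ag, Hist1h2ai, Hist1h2ao, Hist1h2ap, Hist2h2aa1 and Hist2h2aa2 for H2A, Hist1h2ba, Hist1h2bp, Hist1h2bq and Hist1h2br for H2B, Hist1h3h and Hist2h3b for H3, and Hist1h4m for H4. This was 20.6% of the members, against 25.5% of all named genes. A count of 0 allows up to 3 reads in a library, taken as a one-sided limit for counting error. Hist2h2aa1, Hist2h2aa2, Hist2h3b and Hist1h2bq are matched over their whole length by another gene in stretches of 75 bases, the read length. A gene annotated over the same bases on either strand also counts as a match. Hist2h3b is overlapped by such a gene, Gm20628, so its match need not be a second place in the genome. Hist2h2aa1 and Hist2h2aa2 are also overlapped by other genes, and how much of their match lies at a second place was not separated. Hist1h2bq is overlapped by none, so that a read from it could be placed elsewhere. How reads with several placements were counted is not given in the sources used here.

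Levels between genes were compared per length, as RPKM, reads scaled to the kilobases of annotated exon and to the total of the library. The exon length includes bases past the stem-loop, 840 in Hist1h1c, 1643 in Hist3h2a and 330 in Hist1h4i. The order of genes therefore rests on that annotation, and an mRNA ending at the stem-loop would have a higher value. In the cornea Hist1h2bc (46.4) and Hist1h1c (35.4) stood well above Hist1h4i (8.38), Hist3h2a (6.41), Hist1h2bg (2.79) and Hist2h2be (1.73). The order in the limbus was Hist1h2bc (43.7), Hist1h1c (34.5), Hist3h2a (7.57), Hist1h4i (6.36) and Hist2h2be (2.38). Hist3h2a and Hist1h4i changed places between the tissues, and in the limbus their counting intervals overlapped. The first 5 members by reads, Hist1h1c, Hist1h2bc, Hist3h2a, Hist1h4i and Hist2h2be, held 86.7% of the cornea reads of all members and 91.7% of the limbus reads. Their sum had a log2 ratio of -0.23 (-0.30 to -0.15), and the sum of the other 63 members, 533 and 253 reads, one of -0.98 (-1.20 to -0.76). The intervals of these sums did not overlap.

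**Figure D2:**
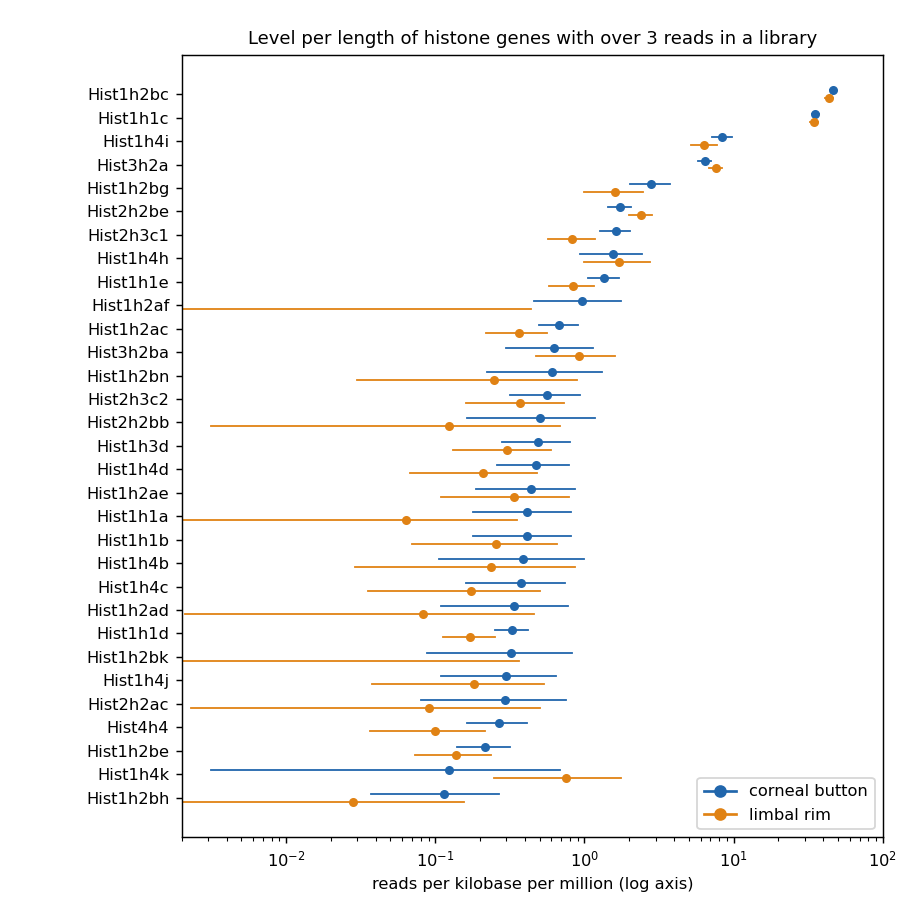
RPKM, reads scaled to exon length and library total (log axis), in the corneal button and the limbal rim for the 31 histone genes with more than 3 reads in at least 1 library, ordered by the cornea. Lines are exact 95% Poisson intervals, cut at the left edge, and a line without a point is a library with 0 reads; Hist1h2bc (46.4 in the cornea) and Hist1h1c (35.4) stand apart from all others. The axis is scaled to total reads, so it compares genes and not tissues.

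The members with many reads shared a long annotated stretch after the stop codon. In 28 members the annotation continued for more than 120 bases past the stop codon, beyond where a stem-loop end would lie, and these held 97.4% of the members' cornea reads and 98.4% of their limbus reads. The stretch was 880 bases in Hist1h1c, 742 in Hist1h2bc, 1700 in Hist3h2a, 376 in Hist1h4i and 2192 in Hist2h2be. The 39 members with a shorter annotated end had 105 cornea reads and 47 limbus reads, and Hist1h4h (93 bases) had the most of them. Both kinds were on the cornea side, the long ones with a log2 ratio of -0.29 (-0.36 to -0.22) and the short ones with -1.06 (-1.59 to -0.56). The long members other than the 5 with the most reads had 428 and 205 reads, or a log2 ratio of -0.97 (-1.21 to -0.72), near that of the short ones. The table gives no position within a gene, so whether the reads lay before or after the stem-loop was not tested. A longer annotated exon also takes more reads at the same level.

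**Figure D3:**
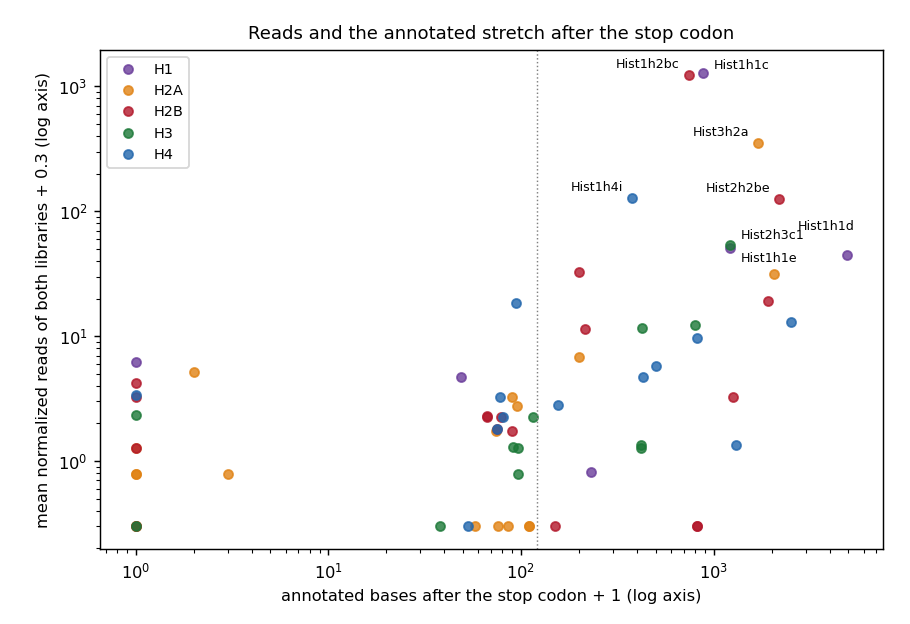
Mean normalized reads of both libraries (+ 0.3, log axis) against the annotated bases after the stop codon (+ 1, log axis) for 67 histone genes; the pseudogene Hist3h2bb-ps has no stop codon. Colours are the histones and the dotted line lies at 120 bases; the members with the most reads are all to the right of it.

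RNAs without a poly(A) tail were set beside the histones, because the labels name both mRNA extraction and a total RNA library kit, and neither they nor the methods say whether poly(A) selection or ribosomal RNA removal was done. Of 8 listed RNAs of this kind 5 were in the table. Rpph1, the RNA of ribonuclease P, had 421 cornea reads and 34 limbus reads, a log2 ratio of -3.53 (-4.08 to -3.03), and Rmrp, the RNA of the related mitochondrial RNA processing enzyme, had 122 and 23, a log2 ratio of -2.31 (-3.02 to -1.66). Rnu12, a spliceosomal RNA, had 67 and 3 reads, at least 6.85-fold higher in the cornea. Rnu11 (7 and 3 reads) and Terc (1 and 3) had too few. Rn45s, the ribosomal RNA precursor named above, had 518274 cornea and 58995 limbus reads, a log2 ratio of -3.04, and was thus higher in the same library as the histones. Of the other RNAs chosen after their values were seen, Malat1, which ends without a usual poly(A) tail, had a log2 ratio of -1.38, and Neat1, which has both kinds of end, one of 0.45. The part of this difference between the libraries in the histone values was not tested.

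The genes lie in 4 clusters, and in each of them 1 or 2 members hold most of the reads, in Hist1 these being Hist1h1c and Hist1h2bc. Hist1 on chromosome 13, with 54 members, had 3403 and 2499 reads, or a log2 ratio of -0.35 (-0.42 to -0.27). All 13 Hist1 members with over 3 reads in each library were on the cornea side, against 53.4% of all genes over that minimum. Hist1h4h, however, turned to the limbus side on the scale of total reads. The 10 Hist2 members on chromosome 3 had 220 and 176 reads, a log2 ratio of -0.23 (-0.52 to 0.07), a sum that joins Hist2h2be (0.26) with Hist2h3c1 (-1.17). The 3 Hist3 members on chromosome 11, with 369 and 357 reads, gave 0.05 (-0.17 to 0.26), but Hist3h2a alone held 359 and 344 of these reads. The only Hist4 gene is Hist4h4, described above.

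**Figure D4:**
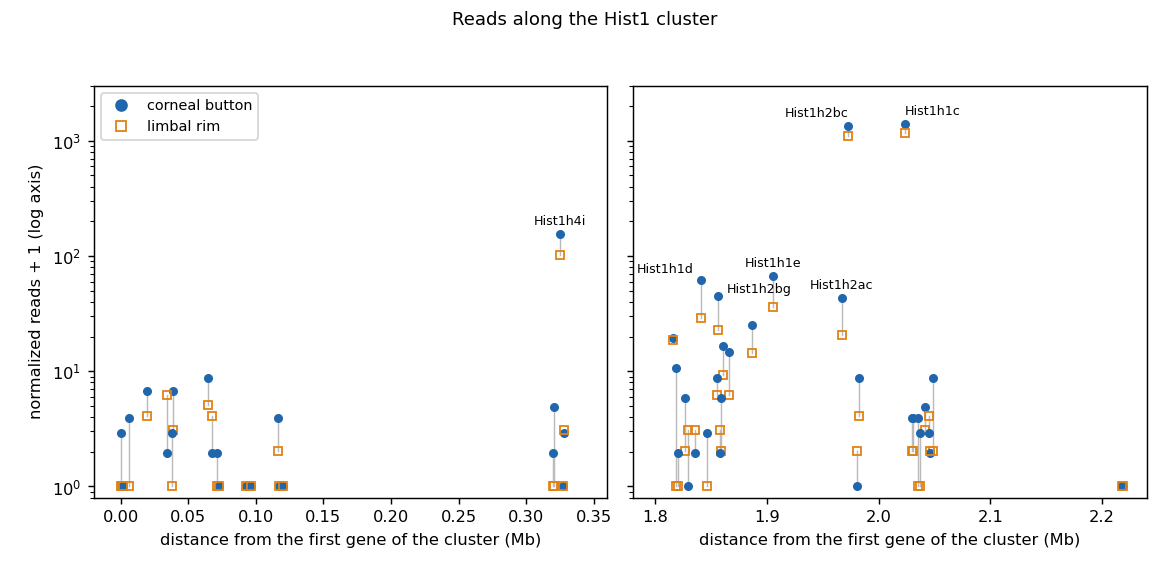
Normalized reads (+ 1, log axis) of the 54 Hist1 members against the distance from the first gene of the cluster on chromosome 13, in 2 windows with the stretch without members left out. Filled circles are the corneal button and open squares the limbal rim. Hist1h2bc, Hist1h1c and Hist1h4i stand above the others. Of the members with over 3 reads in each library, 13 of 13 have the circle above the square, where 53.4% of all genes lay on the cornea side.

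Many H2A and H2B genes are arranged head to head and share the sequence between their starts, and 13 such pairs were found among the members. Reads were unequal within the pairs that had the most. Hist1h2ac and Hist1h2bc start 251 bases apart and had 44 and 1401 reads in the cornea, and 19 and 1071 in the limbus. Hist2h2ac and Hist2h2be start 239 bases apart and had 4 and 118 reads in the cornea, and 1 and 132 in the limbus. Hist1h2ae and Hist1h2bg, at 176 bases, had 8 and 45 in the cornea, and 5 and 21 in the limbus. The pseudogene Hist3h2bb-ps, at 173 bases from Hist3h2a, had 0 reads beside 359 in the cornea and 1 beside 344 in the limbus. The Hist1h2ac promoter, which runs into the start of Hist1h2bc, is shown because this pair held the largest difference in reads between partners (RefSeq, GRCm38.p6, chr13:23683910-23684209, minus strand, from 250 bases before the start to 50 after it). Capitals mark TATAAA, the box CCAAT on either strand, and ATGCAAAT, the reverse complement of the octamer ATTTGCAT.
Hist1h2ac promoter: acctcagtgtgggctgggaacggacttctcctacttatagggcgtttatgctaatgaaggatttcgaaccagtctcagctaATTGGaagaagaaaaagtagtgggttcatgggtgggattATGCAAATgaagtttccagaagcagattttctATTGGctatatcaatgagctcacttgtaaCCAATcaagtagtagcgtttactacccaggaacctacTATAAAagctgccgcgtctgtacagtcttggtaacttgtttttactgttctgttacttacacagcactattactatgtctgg
On either strand, TATAAA occurred in 56.5% of the 62 promoters found for 61 members, against 13.6% of all 32851 RefSeq promoters of the same length. CCAAT occurred in 85.5%, against 37.4%, in every H1, H2A, H2B and H3 promoter and in 3 of 12 H4 promoters. ATTTGCAT occurred in 22.6%, against 1.74%, in 7 of 17 H2A and 7 of 17 H2B promoters and in none for H1, H3 or H4. The letters are a description of these windows and the reads give no measure of binding to them.

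Replacement-variant histones are usually made outside DNA replication and from polyadenylated mRNAs, though not in every case. The 11 such genes had 51766 cornea reads and 37700 limbus reads, far above the 4012 and 3038 of the replication-dependent genes. Their median log2 ratio was -0.07, with 5 on each side beyond counting error (all genes 40.6% in the cornea and 33.2% in the limbus). On the scale of total reads the median was 0.14, with 3 higher in the cornea and 7 in the limbus (all genes 29.7% and 45.1%). H3f3b and H3f3a, which encode H3.3, had 22710 and 14700 reads (log2 ratio -0.53) and 8655 and 6684 (-0.28). H1f0, a linker histone of resting cells, had the lowest ratio (6931 and 3945 reads, -0.72), and H1fx had the highest (31 and 123 reads, 2.08). H2afz, which encodes H2A.Z, had 6530 and 5281 reads (-0.21). Per length, H3f3b (292 RPKM in the cornea) and H2afz (141) were above Hist1h2bc (46.4).

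Among the 13 factors that make and process histone mRNAs, 7 were higher in the cornea and 1 in the limbus (all genes 40.6% and 33.2%). Their median log2 ratio was -0.17. Scaled to total reads the counts were 6 and 5 (all genes 29.7% and 45.1%), with a median of 0.038. Slbp, the protein that binds the stem-loops printed above, had 1033 and 705 reads (-0.46), and Npat, the activator of histone gene transcription, had 433 and 249 (-0.70), both named for their role. Casp8ap2, a component of the histone locus body, had the lowest ratio (503 and 208 reads, -1.18) and Sympk, a scaffold of the cleavage complex, the highest (1706 and 1867, 0.23). Srrt (2430 and 2175 reads), Upf1 (1919 and 1771) and Cpsf3, the nuclease of the cleavage complex (1230 and 1028, log2 ratio -0.16), were the others with the most reads over both libraries.

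Histone chaperones, which carry histones to DNA, were higher in the cornea for 6 of 11 genes and in the limbus for 1 (all genes 40.6% and 33.2%). Their median was -0.23. On total reads the counts were 4 and 3 (all genes 29.7% and 45.1%), with a median of -0.023. Rbbp4 (4642 and 3339 reads), Ubn1 (1847 and 1475) and the H1 and H3-H4 chaperone Nasp (1795 and 1119) had many reads, and Atrx (2177 and 924) had the lowest log2 ratio, -1.14. Cabin1 had the highest, 0.17 (811 and 852 reads).

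DNA replication genes were higher in the cornea for 18 of 32 and in the limbus for 2 (all genes 40.6% and 33.2%). Their median was -0.38, and 28 of 32 lay on the cornea side, against 53.4% of all genes. On total reads 15 and 6 were called (all genes 29.7% and 45.1%), with a median of -0.17. Rrm1, a subunit of ribonucleotide reductase, had 2692 and 1782 reads (-0.50), and Pcna, the sliding clamp, 2680 and 1812 (-0.47). Mcm6 of the replicative helicase had 1836 and 1288 reads, and the S-phase cyclin Ccna2 had 1775 and 1056 (-0.65). The range ran from Ccne2 (257 and 84 reads, -1.52) to Pold1 (319 and 388, 0.38).

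Mitosis genes gave 6 of 12 higher in the cornea and 1 in the limbus (all genes 40.6% and 33.2%), with a median of -0.18. On total reads the counts were 6 and 6 (all genes 29.7% and 45.1%), with a median of 0.030. Mki67, the proliferation marker, had 3767 and 2819 reads (-0.32), and Top2a had 2764 and 1982. Kif23 (1416 and 939 reads) and Cdk1 (1178 and 1081) followed, and the range ran from Bub1 at -1.04 to Cdc20 at 0.49 (918 and 1205 reads). The histone median of -0.85 rests on members with fewer reads than most of the listed genes. For the 7 members with a mean of at least 50 it was -0.29, which is not below the median of -0.38 of the DNA replication genes, and no difference between lists was tested.

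**Figure D5:**
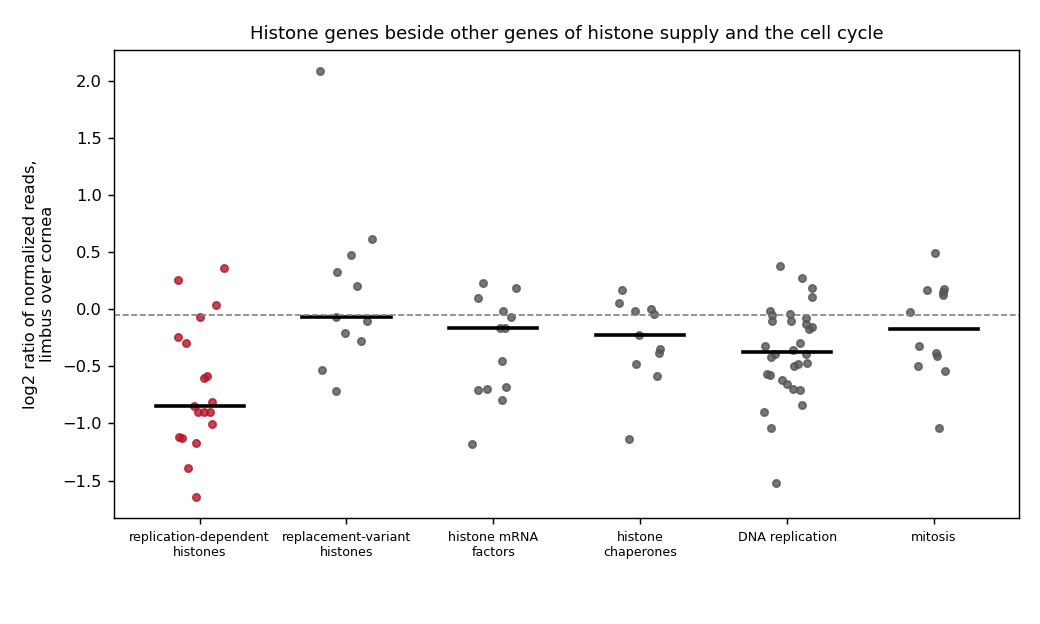
Log2 ratio of normalized reads, limbus over cornea, for the 19 histone genes with over 3 reads in each library and for the genes of 5 lists. Each point is a gene, bars are medians and the dashed line is the median of all genes (-0.05); the histone bar lies at -0.85 (-0.29 for the 7 members with a mean of at least 50, not drawn) and the others between -0.38 and -0.07.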

How the data were processed

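RNA from pooled corneal buttons and limbal rims was sequenced with a stranded total RNA kit. Per the methods, the authors trimmed adaptors, used CLC Genomics Workbench to map to the GRCm38 (mm10) genome, and normalized by trimmed mean of M-values; strand use and multiply placed reads in counting are not given in the sources used here. The authors deposited 1 table of 40904 rows, of which 17484 carry no gene name and were left out. In its mean column the authors deposited a signal, the mean of 2 libraries' reads each divided by a size factor (1.03 for the cornea and 0.967 for the limbus). The authors also deposited a shrunken log2 fold change with its standard error and p-values; these hold their comparison and are not printed. The planned test on counts per sample was not possible.

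Each mean is a whole number of steps, 102 per cornea read and 109 per limbus read (largest miss 0.0101 steps). This gave 1 read pair for 6143 genes, 49 of the 54 detected members included. For 11299 genes, with Hist1h1c, Hist1h2bc, Hist3h2a, Hist1h4i and Hist2h2be among them, the pair nearest to the fold change and its error was taken (largest miss 1.93 reads, next pair at least 107 reads away). On data simulated under the same model and size factors 3000 of 3000 pairs were recovered. This checks the calculation and not whether the deposited columns follow that model.

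Log2 ratios (limbus over cornea) carry exact Clopper-Pearson 95% intervals, and levels exact Poisson intervals. Reads amplified by PCR and carrying no molecular identifiers do not count independent molecules, so intervals and floors cover counting error only, and no p-value was computed. Ratios need more than 3 reads in both libraries. Members, lists and alternatives were chosen with earlier results of these data known. Named with values were members with a mean of at least 50 or a log2 ratio of 1 or more either way, and from each list the 4 genes with the most reads over both libraries and the highest and lowest ratio; others are said to be chosen otherwise or given by reads alone. Some of the cell type markers chosen are not reported here. Of 68 members 67 matched a RefSeq synonym. Python 3.11.15, numpy 2.4.6, scipy 1.17.1 and pandas 2.3.3 were used.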

Additional observations from a re-analysis of the deposited data

How the results depend on the processing

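Trimmed mean of M-values scaling and a pseudocount of 1 read left the call of each of the 19 members as it was, and scaling to total reads that of 15. With total reads, the count higher in the limbus was 2 (Hist3h2a, 0.24, and Hist2h2be, 0.46), Hist1h1c (-0.04) and Hist1h2bc (-0.09) no longer differed beyond counting error, and the summed log2 ratio was -0.10 for all members, -0.095 for H1, 0.058 for H2A and -0.071 for H2B. With a mean of at least 50, 5 of 7 members were higher in the cornea with a median of -0.29. The share of all genes at that mean was not computed, and intervals are narrower for genes with more reads. Only 5 members share no 75-base stretch with another gene, and 0 were then higher in the cornea. Of these only Hist1h1b (-0.90) and Hist2h2be (0.26) had over 3 reads in each library, and their median was -0.32. The sum was 0.16 (-0.19 to 0.51), resting on Hist2h2be, H1 was -1.32 (-2.96 to 0.11) and H2B 0.26 (-0.11 to 0.63). All of these intervals included equality. Of the settings chosen after seeing the data, leaving out Hist1h1c and Hist1h2bc gave a sum of -0.40 and -1.04 for H1. In another such setting, total reads without Rn45s, the sum was -0.12. Using only members with 3 reads or fewer in a library, also chosen afterwards, gave -1.17. This set includes the 12 members with more than 3 reads in 1 library only, 11 of them through the cornea, so its choice itself lowers the sum. The cause of these shifts was not tested beyond the scale itself and the members left. H3 and H4 sums kept their side wherever they could be computed; without shared stretches no member of H2A, H3 or H4 with enough reads was left, and none of H2A without overlapped genes. No paired analysis was possible because the table holds no value per sample. With 1 library of each tissue no replicate could be left out, and depth limits the 12 members with more than 3 reads in 1 library and the 23 with 3 or fewer in both to a count of reads.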
